A study of Arabidopsis thaliana with 21 samples.

Results

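The comparison described here is that of the line labelled At3++, which over-expressed inositol phosphorylceramide synthase 3 (AtIPCS3), with the wild type Col-0. Its members were taken by their labels, as the 3 libraries labelled At3++ and the 3 labelled Col-0 of 21 libraries in the series, and all 22222 genes that could be tested of 25263 listed were compared. The study sequenced RNA from whole seedlings of Arabidopsis thaliana, in Col-0 and in 6 lines, a pair for each of the 3 isoforms of the enzyme, and asked how transcripts respond to the level of each isoform. Seedlings were 10 days old and had grown on agar at 20 °C with 16 h of light and 8 h of dark. At3++ was Col-0 transformed by floral dip with the AtIPCS3 coding sequence in an over-expression vector, and Col-0 was not transformed, so that the groups differ by the transgene and by the history of transformation and selection. The labels name no other treatment of either group. Each group stands for 1 line. The study describes the 3 libraries of a transformed line as technical replicates and does not say this of Col-0. Elsewhere it lists 3 experimental replicates for every group, Col-0 included. The p-values below thus measure the spread between these libraries, which may be technical, and not that between independent plants or lines.

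Inositol phosphorylceramide synthases move the head group of phosphatidylinositol onto ceramide, at the start of the branch of sphingolipid synthesis that leads to the glycosylated inositol sphingolipids of the plant plasma membrane. Their substrate ceramide and the sphingoid bases upstream of it are known as signals in plant cell death and in responses to pathogens. In a seedling of this age, seed reserves have normally been used up, the leaves photosynthesize, and the circadian clock sets the daily rhythm of a large part of the transcripts.

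Values are normalized counts (reads scaled by a size factor for each library), with 12834075 to 14564962 reads on genes per At3++ library and 14592430 to 15330243 per Col-0 library. A log2 fold change is the difference of group means of log2(normalized count + 1), which understates the change of low genes, and its error is the standard error (SE) from limma. Calls required a Benjamini-Hochberg adjusted p below 0.05 in limma together with a log2 fold change of 1 or more in size. For genes with 3 reads or fewer throughout a group, termed at the floor, the fold of a single gene is printed only as a lower bound, which sets that group to 3 reads per library. Replicates 1 and 2 labelled At3+ held identical values and were counted as 1 sample, so that n = 2 for At3+ and n = 3 for At3++ and Col-0. As a check of the tissue, the photosystem and root lists, each taken as a sum, had reads in every library of both groups. Of the 8 floral organ genes listed, 4 were at 3 reads or fewer in every library of both groups.

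The introduced transcript was read first. IPCS3 (AT2G29525) was at 6083, 5445 and 5877 in the At3++ libraries and at 58.4, 52.3 and 62.3 in those of Col-0. The groups were far apart, and the log2 fold change was 6.63 (SE 0.40, limma adjusted p = 1.66e-12). Reads of the introduced and of the resident copy cannot be told apart in this count. Libraries labelled At3+ had a higher mean, with 12859 and 11006, against the order of the labels + and ++, but the difference (At3++ minus At3+, log2 -1.04, limma adjusted p = 0.0987) was not past the threshold. Libraries are named by their deposited labels throughout. In these counts both At3+ values lay above all At3++ values. The study itself does not use the names At3+ and At3++ for the same libraries in all places. Which of them it means as its line of higher expression cannot be told here. The comparison with Col-0 holds for the libraries labelled At3++ in either case. The resident isoforms were not called, with log2 fold changes of 0.46 for IPCS1 and 0.26 for IPCS2.

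Against Col-0, 514 genes (2.31% of those tested) were called lower in At3++ and 897 (4.04%) were called higher. At any fold, 8558 genes (38.5%) had an adjusted p under 0.05. The groups did not overlap for 51.9% of all genes tested, and for 487 of the 514 lower and 880 of the 897 higher genes. Large changes were mostly rises, since 100 of the higher genes and 20 of the lower ones changed by 3 or more on the log2 scale. Col-0 was at the floor of 3 reads in every library for 158 of the higher genes, and At3++ for 88 of the lower ones. In RNA of whole seedlings, a change in the number of cells of a type and a change in RNA per cell cannot be told apart. The median over all genes tested was -0.01. With libraries scaled by their total instead, an alternative chosen after seeing the data, this median moved to -0.16 and the calls split into 731 lower and 698 higher, so that a change of a list is to be read against the median of all genes. All lines of the series share the 3 Col-0 libraries. At3++ was therefore also compared directly with At3+, where 172 genes (0.774%) were lower and 653 (2.94%) higher in At3++ (251 and 541 with libraries scaled by their total), and with the mean of the other 5 lines, where 58 (0.261%) were lower and 265 (1.19%) higher. Of the genes called against Col-0, 104 of 514 lower and 461 of 897 higher genes were called in the same direction against At3+, and 33 and 152 against the other 5 lines.

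**Figure D1:**
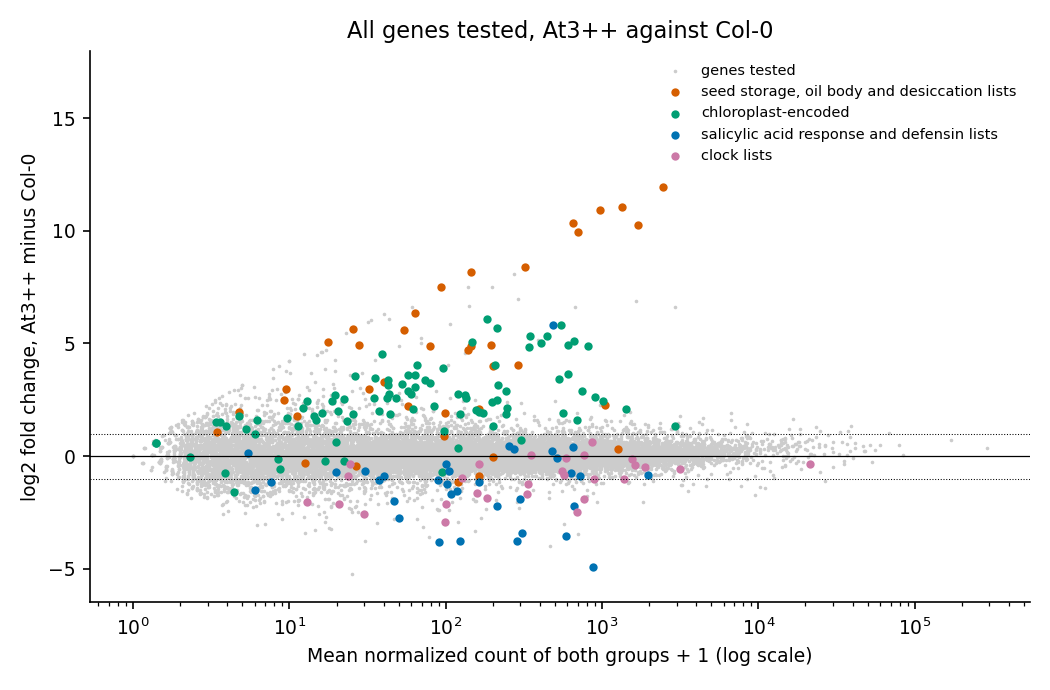
Log2 fold change of At3++ minus Col-0 for each gene tested (vertical axis) against the mean normalized count of both groups plus 1 (horizontal axis, log scale), with gene lists in colour and dotted lines at a log2 fold change of 1 in either direction. Seed genes reach a fitted value of 11.93 (CRU3), which is no bound since Col-0 was at the floor and depends on the pseudocount, and chloroplast-encoded genes 6.09, while defence genes reach -4.92 (PR1).

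The largest rises were those of genes for the protein and oil reserves of the seed. Of 12 genes for storage proteins, 11 rose and none fell, with a median log2 fold change of 9.06 (7.81 with the genes at the floor in Col-0 put at their bound). Of 9 tested genes for oil body proteins, 8 rose (median 4.91). Together the storage protein genes took 0.102% to 0.121% of the reads on genes in the At3++ libraries, against 3.59e-04% to 3.84e-04% in those of Col-0. Oil body genes took 0.00946% to 0.0109% against 2.48e-04% to 3.46e-04%. Neither share overlapped between the groups. The exact two-sided permutation test gave p = 0.1 for each, the smallest p that 3 against 3 libraries allow. The seed lists were chosen with earlier results of these data known, so that neither their direction nor this test is independent evidence. The 12 genes with the largest rise of all called genes with a mean of at least 50 in the higher group were 8 of the storage protein genes, the oleosin gene OLEO1 and 3 others, named below.

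CRU3 (AT4G28520) encodes a cruciferin, a globulin of the 12S class that is stored in protein vacuoles. It was at 4210.2, 4934 and 5490.1 in At3++ and at 0.927, 0 and 0 in Col-0. Col-0 held at most 1 read per library, and CRU3 was at least 1780.4-fold higher in At3++ (limma adjusted p = 2.88e-23). CRA1 (AT5G44120), another cruciferin, was at 3010.4, 3349 and 3848 in At3++ and at 2.78, 0.935 and 1.76 in Col-0, which is at least 1242-fold. The 2S albumins, small sulphur-rich storage proteins, showed the same gap. SESA5 (AT5G54740) was at 2527, 2636 and 2831 in At3++ and at 0, 0 and 0.878 in Col-0, and SESA3 (AT4G27160) at 1843, 1802 and 2140.4 against 0 in all Col-0 libraries. The lower bounds were 973-fold and 704-fold. SESA1 to SESA4 and the cruciferins are in part near-identical copies, so that reads may be split among them and their single levels are uncertain.

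The vicilin-like globulins had a measurable level in Col-0. PAP85 (AT3G22640) was at 222, 273 and 298 in At3++ and at 11.1, 9.35 and 7.02 in Col-0 (log2 fold change 4.72, SE 0.15, limma adjusted p = 4.29e-18). VCL22 (AT2G28490) was at 259, 252 and 324 and 7.42, 9.35 and 8.78. Both were higher in every At3++ library than in any of Col-0. The exception in the list was VCL21 (AT2G18540), with 17.3, 25.1 and 22.8 in At3++ and 29.7, 31.8 and 28.1 in Col-0 (log2 -0.45, limma adjusted p = 0.358), although it was higher in At3++ than in At3+, at 6.23 and 4.79 (log2 1.80, limma adjusted p = 0.00259).

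Oleosins coat the surface of oil bodies and keep them apart. OLEO1 (AT4G25140), the major oleosin of the seed, was at 593, 628 and 696 in At3++ and at 0, 0.935 and 2.63 in Col-0, at least 233-fold higher. OLEO2 (AT5G40420) was at 326, 367 and 430.2 against 13.9, 14.95 and 7.02 (log2 4.91), and OLEO4 (AT3G27660) rose by 4.89. The caleosins, oil body proteins that bind calcium, were read at 98.9, 113 and 104 for CLO1 and 51.0, 50.2 and 45.5 for CLO2, with at most 2 reads of CLO1 and none of CLO2 in a Col-0 library. The oil body associated protein gene OBAP1A was at least 45.3-fold higher. HSD5, a steroleosin gene, was called on low counts of 3.06, 2.09 and 15.6, of which the third library is the highest. OLEO3 was at 1.02, 6.28 and 3.60 in At3++ and 2.78, 0.935 and 0 in Col-0 and did not pass (limma adjusted p = 0.106).

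**Figure D2:**
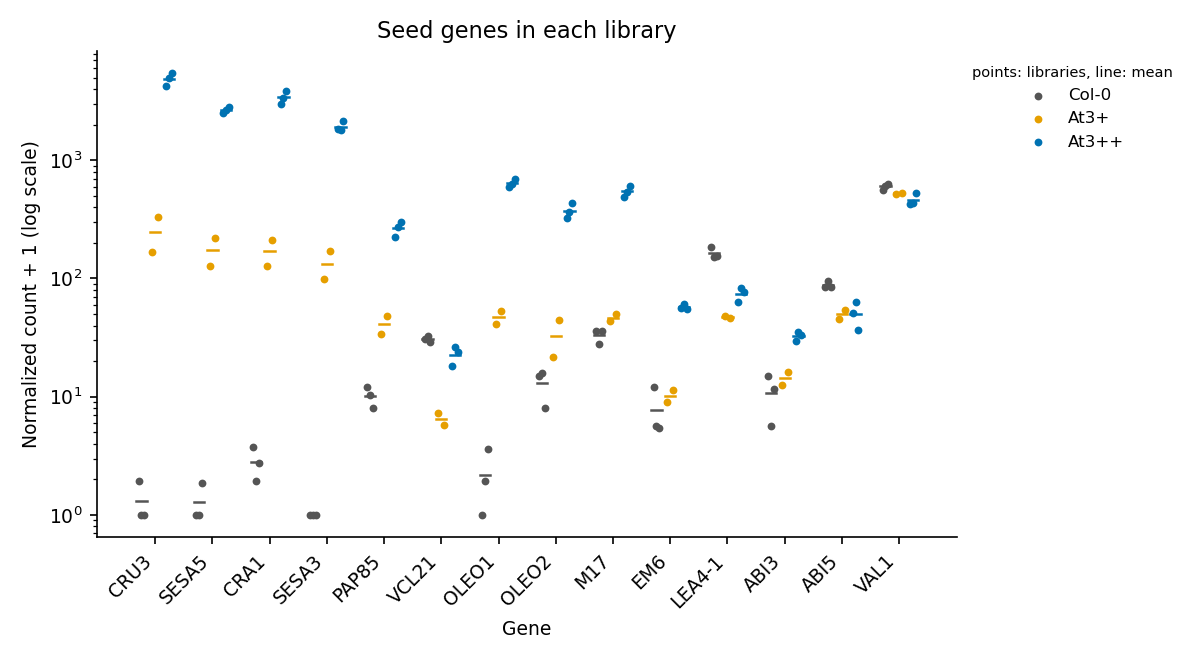
Normalized count plus 1 (log scale) of 14 seed genes in each library of Col-0, At3+ and At3++, with a short line at the group mean. For CRU3, SESA5, CRA1, SESA3 and OLEO1 the At3++ libraries lie at 593 or higher and those of Col-0 at 2.78 or lower, with At3+ in between, whereas LEA4-1, ABI5 and VAL1 do not lie above Col-0.

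Among 17 genes of the desiccation list, which are switched on as seeds dry, 11 rose and 1 fell (median 2.08). M17 (AT2G41260), a late embryogenesis abundant (LEA) gene, was at 490.3, 534 and 606 in At3++ and at 35.2, 27.1 and 35.1 in Col-0 (log2 4.03, SE 0.17, limma adjusted p = 1.54e-15). PER1 (AT1G48130), a seed peroxiredoxin, was at 377, 388 and 362 against 19.5, 17.8 and 33.4 (log2 3.99). RAB18 (AT5G66400), a dehydrin induced by abscisic acid, was at 1487, 1789.7 and 1919 against 388, 362 and 334 (log2 2.25). All of these were higher in every At3++ library. Other members moved otherwise. LEA4-1 (AT1G32560) fell, from 184, 151 and 153 in Col-0 to 62.2, 81.6 and 75.5 in At3++ (log2 -1.15, limma adjusted p = 9.69e-05), and LEA18 had -0.89, LEA14 0.30 and LEA4-5 0.90, which were not called. The desiccation genes took 0.0325% to 0.0362% of reads in At3++ and 0.0166% to 0.0179% in Col-0 (exact permutation p = 0.1).

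Most of the factors that switch these genes on were not called. Of 9 tested regulators of seed maturation, 2 rose and 1 fell, and 4 of the 12 listed were at 3 reads or fewer in all 6 libraries. ABI3 (AT3G24650), a B3-domain factor that activates storage genes, was at 28.5, 34.5 and 32.4 in At3++ and at 13.9, 4.67 and 10.5 in Col-0 (log2 1.72, SE 0.32, limma adjusted p = 1.16e-04). Its groups did not overlap. HSFA9 (AT5G54070), a heat stress factor of maturing seeds, was at 5.10, 3.14 and 8.39 against 0.927, 0 and 0. ABI5 (AT2G36270), a bZIP factor of abscisic acid responses, was at 49.95, 61.8 and 36.0 against 84.4, 94.4 and 83.4 (log2 -0.85, not called), and the dormancy gene DOG1 (AT5G45830) fell from 22.3, 25.2 and 29.0 to 8.16, 7.33 and 9.59 (log2 -1.50, limma adjusted p = 0.0102). None of the 4 repressors of the embryo programme was called, and VAL1, which silences seed genes in seedlings through the B3-bound elements, had -0.38 and PKL, a chromatin remodeller, 0.02. Of 10 genes that use up the reserves, the isocitrate lyase gene ICL (AT3G21720) of the glyoxylate cycle rose, from 314, 302 and 303 in Col-0 to 762, 935 and 1064 in At3++ (log2 1.57). Malate synthase, MLS, the partner enzyme, had 0.87 and was not called, and the others lay between -0.32 and 0.27.

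The windows before the start of the 3 seed genes with the largest change are shown because the elements that seed factors bind lie there. They are the 250 bases before the annotated gene start on the RefSeq assembly TAIR10.1, written 5′ to 3′ on the strand of the gene, and capitals mark matches to 4 motifs searched on both strands in a window that runs 50 bases further. These were the core of the RY element CATGCA, bound by B3-domain factors, the G-box CACGTG, bound by bZIP and bHLH factors, the core of the evening element AATATCT, bound by the morning MYB factors of the clock, and the W-box TTGACC or TTGACT, bound by WRKY factors. Overlapping matches were each counted.
CRU3, chr4:14087306-14087555 (plus strand): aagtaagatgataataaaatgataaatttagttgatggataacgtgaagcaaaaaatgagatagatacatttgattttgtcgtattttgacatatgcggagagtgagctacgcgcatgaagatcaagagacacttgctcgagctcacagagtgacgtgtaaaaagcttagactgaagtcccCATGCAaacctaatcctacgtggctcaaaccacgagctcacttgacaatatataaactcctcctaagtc
SESA5, chr5:22239188-22239437 (minus strand): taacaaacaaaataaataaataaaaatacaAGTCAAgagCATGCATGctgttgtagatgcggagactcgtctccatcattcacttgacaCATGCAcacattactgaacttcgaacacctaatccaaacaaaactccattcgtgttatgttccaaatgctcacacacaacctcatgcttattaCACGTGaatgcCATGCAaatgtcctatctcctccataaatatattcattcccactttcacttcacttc
SESA3, chr4:13611546-13611795 (plus strand): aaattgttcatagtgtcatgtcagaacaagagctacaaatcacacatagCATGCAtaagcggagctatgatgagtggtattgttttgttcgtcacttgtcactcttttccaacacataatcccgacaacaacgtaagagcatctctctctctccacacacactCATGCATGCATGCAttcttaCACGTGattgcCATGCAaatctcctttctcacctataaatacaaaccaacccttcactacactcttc
CRU3 held 1 match to the RY core, SESA5 held 4 with a G-box and a W-box, and SESA3 held 7 with a G-box. The RY core was present in 10 of the 12 windows of storage protein genes and in all 9 of the oil body genes tested, against 9.72% of 27443 windows of all nuclear protein-coding genes. The G-box was in 7 of 12 and 3 of 9, against 7.68%. Of the 796 genes called higher that have such a window, 167 held the RY core, and of 439 called lower 59 did. A match describes the letters and no binding was measured.

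Against At3+, all 12 storage protein genes and 7 of the 9 oil body genes were higher in At3++ (background 2.94%), with medians of 3.87 and 3.09. CRU3 was at 166 and 330.0 in the At3+ libraries, above Col-0 and below At3++. Against the mean of the other 5 lines, 11 of 12 and 6 of 9 were higher (background 1.19%), with medians of 1.88 and 1.33. Against that mean the other 5 lines are not alike. The share of reads on storage protein genes was 0.232% to 0.251% in At1++, above At3++, and at most 0.0529% in any library of At1+, At2+, At2++ and At3+.

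Genes outside the seed lists stood beside them at the top of the ranking. NSP2 (AT2G33070), a nitrile specifier protein that acts on the breakdown of glucosinolates, was at 480.1, 541 and 602 in At3++ and at 1.85, 0 and 1.76 in Col-0, at least 197-fold higher. The glycine-rich protein gene AT2G05580 and AT1G14950, annotated as a lipid transport superfamily protein, were at least 143-fold and 101-fold higher. The defensin PDF1.1 (AT1G75830) rose from 12.1, 19.6 and 17.56 in Col-0 to 944, 831 and 1095 in At3++ (log2 5.80, SE 0.17, limma adjusted p = 8.00e-19). EPR1 (AT2G27380), an extensin-like cell wall protein gene, was at 1104, 1269.6 and 1619 against 14.8, 14.02 and 8.78 (log2 6.63). The study describes EPR1 as a gene of embryos and developing seeds, so that a place outside these lists does not set a gene apart from seeds.

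Defence genes were among the largest falls. Of 24 genes of the salicylic acid response, 12 fell and none rose (median -1.07). Of the 23 immune receptor genes listed, 8 fell and none rose (median -0.64). Salicylic acid is the hormone of resistance to pathogens that feed on living cells, and these lists were chosen with earlier results of these data known, so that their direction is not independent evidence. PR1 (AT2G14610), the usual marker of the response, was at 55.05, 54.4 and 56.3 in At3++ and at 1771, 1584 and 1754 in Col-0. Its At3++ libraries lay close together, and it fell by 4.92 (SE 0.45, limma adjusted p = 3.80e-09), which was the largest fall of all genes with a mean of at least 50 in the higher group. PR2 (AT3G57260), a beta-1,3-glucanase, was at 87.7, 57.6 and 77.9 against 312, 338 and 392 (log2 -2.22), and PR5 (AT1G75040), a thaumatin-like protein, at 113, 90.0 and 98.3 against 213, 242 and 209.9 (log2 -1.14). Both groups were separate for each gene.

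LURP1 (AT2G14560), which is needed for basal defence against an oomycete, was at 239, 229 and 225 in At3++ and 1098, 1004 and 1169.6 in Col-0 (log2 -2.23). AIG1 (AT1G33960), a GTPase gene induced by bacterial avirulence proteins, was at 56.1, 42.9 and 56.3 against 521, 588 and 574 (log2 -3.42). The WRKY factors of this list were lower in part, with WRKY46 (-1.98), WRKY54 (-1.23) and WRKY60 (-1.07) called and WRKY70 (-0.76), WRKY53 (-0.90) and WRKY18 (0.33) not called. Across the whole family by annotation, 6 of 63 WRKY genes tested fell and none rose, at 9.52% against 2.31% of all genes. Of the receptors, CRK7 (AT4G23150), a cysteine-rich receptor-like kinase, was at 5.10, 2.09 and 1.198 against 27.8, 31.8 and 33.4 (log2 -3.20), WAK3 (AT1G21240), a wall-associated kinase, at 3.06, 8.37 and 11.98 against 37.1, 37.4 and 40.4 (log2 -2.31), and BDA1, an ankyrin repeat protein, had -2.40. The flagellin receptor FLS2 (0.36) and its partner BAK1 (0.16) were not called. Counted by description, 14 of 141 receptor-like kinase genes tested fell (9.93%) and 7 rose (4.96%), with a median of 0.11. Over all genes, 2.31% fell and 4.04% rose. Of 139 genes described as disease resistance proteins, none fell and 1 rose. The falls of the receptor list thus do not stand for these wider families.

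None of the 12 genes for its synthesis and upstream control was called, with log2 fold changes from -0.82 to 0.38. ICS1 (AT1G74710), the isochorismate synthase that makes most of it, was at 98.9, 98.4 and 122 in At3++ and at 124, 158 and 167 in Col-0 (log2 -0.48, limma adjusted p = 0.0130). SARD1, a factor that activates ICS1, had -0.82, PAD4 -0.57 and EDS1 0.06. The receptor gene NPR1 had -0.09 and NPR3, a receptor that limits the response, 0.39.

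In the branch of defence under jasmonate and ethylene, 6 of 10 genes fell and 1, PDF1.1, rose (median -1.62). PDF1.2A (AT5G44420), the usual marker, was at 38.7, 40.8 and 34.8 in At3++ and 558, 505 and 519 in Col-0 (log2 -3.76, SE 0.55, limma adjusted p = 6.71e-06). PDF1.3 (AT2G26010) was at 93.8, 97.3 and 86.3 against 1128, 1029 and 1075 (log2 -3.53), and PDF1.2B and PDF1.2C had -3.81 and -3.79. These 4 are near-identical copies, so that their single levels are uncertain. The factors ORA59 (-1.68) and ERF2 (-1.56), which act upstream of the defensins, fell as well. The hevein-like PR4 had -0.86 and was not called. Of 11 genes of jasmonate synthesis 1 rose, the allene oxide synthase gene AOS (AT5G42650), at 3079, 3164 and 3291 against 1355, 1658 and 1574 (log2 1.06), and its call was lost without the first Col-0 library and with libraries scaled by their total. The outputs of jasmonate signalling went both ways. The vegetative storage protein genes VSP1 (1.65) and VSP2 (1.23) rose, while the tyrosine aminotransferase gene TAT3 (-2.40), the terpene synthase gene TPS04 (-2.21) and the repressor gene JAZ5 (-1.18) fell.

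Of 11 lipid transfer genes, 3 hybrid proline-rich ones fell and 3 others rose. AZI3 (AT4G12490) was at 125, 115 and 103 in At3++ and at 1219, 1323 and 1294 in Col-0 (log2 -3.47), EARLI1 (AT4G12480) at 662, 722 and 715 against 2607, 3290.1 and 2887 (log2 -2.06), and AZI4 fell by 1.98. DIR1 (AT5G48490), a lipid transfer protein of systemic acquired resistance, was at 365, 357 and 379 against 183, 163 and 152 (log2 1.15). LTP3 (1.03) and LTP6 (1.06) were called higher by little more than the threshold. With libraries scaled by their total, none of the 3 rises was called. Other genes among the 12 with the largest fall were PCR1 (AT1G14880), a plasma membrane protein gene of cadmium resistance, at 49.95, 45.01 and 65.9 against 875, 813 and 928 (log2 -4.01), the acireductone dioxygenase gene ARD3 (-3.76) of the methionine cycle and the protein kinase gene CIPK20 (-3.59). AT3G28540, annotated as a nucleoside triphosphate hydrolase (-3.34), and the hydrolase gene AT5G24200 (-3.17) were also among them.

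**Figure D3:**
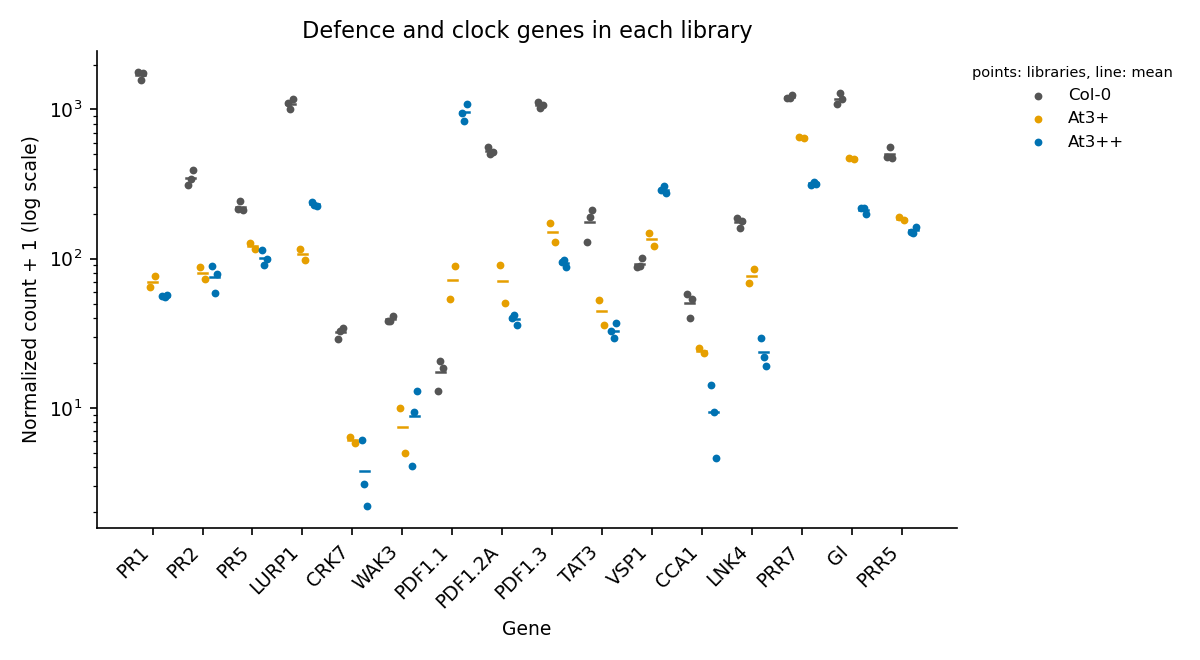
Normalized count plus 1 (log scale) of 16 defence and clock genes in each library of Col-0, At3+ and At3++, with a short line at the group mean. PR1 and PDF1.3 lie at 1029 or higher in every Col-0 library and at 172 or lower in both lines, PDF1.1 and VSP1 are highest in At3++, and CCA1, LNK4, PRR7 and GI are lowest in At3++.

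A pair of defence genes among those with the largest absolute change is shown with the same window and motifs as the seed genes, since WRKY factors and clock factors act on genes of these kinds.
PDF1.1, chr1:28472107-28472356 (plus strand): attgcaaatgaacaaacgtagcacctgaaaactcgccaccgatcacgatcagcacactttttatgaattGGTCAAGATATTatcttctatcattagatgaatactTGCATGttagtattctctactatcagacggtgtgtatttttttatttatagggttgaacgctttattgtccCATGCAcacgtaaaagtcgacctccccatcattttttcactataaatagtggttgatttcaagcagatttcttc
PDF1.2B, chr2:11088873-11089122 (plus strand): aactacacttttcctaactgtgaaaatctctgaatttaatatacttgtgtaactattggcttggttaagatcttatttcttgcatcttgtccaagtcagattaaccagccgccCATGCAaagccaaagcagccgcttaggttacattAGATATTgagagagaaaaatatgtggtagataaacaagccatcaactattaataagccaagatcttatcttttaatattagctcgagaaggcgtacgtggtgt
PDF1.1, which rose, held the RY core at 2 places, and PDF1.2B, which fell, held it at 1 place in the part shown and again after the gene start. Both also held an evening element core, and PDF1.1 a W-box. W-box letters were in 32.4% of all windows, in 42.6% of those of the genes called lower and in 20.8% of the 24 of the salicylic acid response list.

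The direct comparisons placed At3++ among the lines. Against At3+, 1 gene of the salicylic acid response, LURP1 (log2 1.11), was higher and 1, WRKY53 (-1.09), was lower in At3++. PR1 was at 63.2 and 75.1 in At3+ and its difference was -0.31 (limma adjusted p = 0.708). Against the mean of the other 5 lines, 5 of the 24 response genes and 5 of the 23 receptors were higher in At3++. So were 5 of the 10 defensin branch genes, and none of these lists held a lower gene. In that comparison the background was 1.19% higher and 0.261% lower. PR1 was higher by 1.87, PR2 by 1.93, PDF1.2A by 2.22 and PDF1.3 by 2.56 on the log2 scale. These genes were thus lower than in Col-0 and higher than in the mean of the other lines. A difference from that mean need not hold for each line, and PR1 did not differ from At3+ past the threshold.

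The clock genes that peak from dawn on were low. Of 14 genes of the morning list, 10 fell and all 14 log2 fold changes were below 0 (median -1.74). Of 14 of the evening list 3 fell (median -0.43), and no gene of either list rose. CCA1 (AT2G46830), a MYB factor at the core of the clock, was at 13.3, 8.37 and 3.60 in At3++ and 56.6, 39.3 and 52.7 in Col-0 (log2 -2.55, SE 0.35, limma adjusted p = 2.50e-06). Its partner LHY was at 20.4, 12.6 and 14.4 against 24.1, 40.2 and 25.5, did not overlap between the groups and was not called (log2 -0.87). The LNK genes, coactivators of the morning factors, fell together. LNK4 (AT5G06980) was at 28.5, 20.9 and 17.98 against 185, 159 and 179 (log2 -2.92), and LNK1 (-2.11), LNK2 (-1.85) and LNK3 (-2.15) were also called.

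Of the pseudo-response regulators, which repress the morning factors in turn through the day, PRR7 (AT5G02810) was at 311, 328 and 316 in At3++ and 1184, 1196 and 1242 in Col-0 (log2 -1.92), while PRR9 had -2.05 and PRR5 -1.70. PRR3 (-0.82) and TOC1 (-0.58), the last of the series in the day, were not called. GI (AT1G22770), which links the clock to flowering, was at 217, 218 and 198 against 1083, 1279.6 and 1168 (log2 -2.47, SE 0.13, limma adjusted p = 7.44e-14). FKF1 (AT1G68050), a blue-light receptor that acts with GI, had -1.24. Members of the evening complex were not called, with ELF3 at -0.39, ELF4 at -0.67 and LUX at -0.47. All of the called clock genes were lower in every At3++ library than in any of Col-0. The hour of harvest is not given in the sources used here, so that a shift of the rhythm and a change of its level cannot be told apart. The evening element core was in 9 of the 14 windows of the evening list and 6 of 14 of the morning list, against 11.5% of all windows.

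In the flowering list 7 of 12 tested genes fell and 1 rose (median -1.21). The CYCLING DOF factor genes, which repress CONSTANS, fell, with CDF1 at -1.62, CDF2 at -1.25, CDF3 at -1.98 and CDF5 at -1.997. The floral repressors FLC (AT5G10140), at 34.7, 35.6 and 32.4 against 68.6, 86.9 and 79.9 (log2 -1.17), MAF4 (-1.85) and MAF5 (-2.003) fell. FT (AT1G65480), the mobile signal of flowering, rose on low counts, from 0.927, 3.74 and 3.51 in Col-0 to 10.2, 17.8 and 15.6 in At3++ (log2 2.13, limma adjusted p = 0.00249), and was also higher than in At3+ (1.82) and in the mean of the other 5 lines (1.498). Of 18 light signalling genes 7 fell and none rose (median -0.79). PIF4 (AT2G43010), a bHLH factor of growth in warmth and shade, was at 399.6, 443 and 428 against 1327, 1291 and 1362 (log2 -1.65), and PIF5 had -1.11. The B-box factor genes BBX28 (-2.82) and STO (-1.54) and the bZIP factor gene HYH (-1.88) fell, while HY5 had -0.83 and was not called. None of 6 genes induced by shade was called, with -0.94 for XTH15 as the lowest. Of 6 dark-inducible genes of sugar starvation, 3 fell. DIN11 (AT3G49620) was at 122, 121 and 123 against 991, 923 and 1112 (log2 -3.03), DIN6, an asparagine synthetase, fell by 1.43 and DIN1, a senescence marker, fell by 1.37.

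Against At3+, 4 of the 14 morning genes were lower in At3++ (background 0.774%), namely LNK4 (-1.73), CCA1 (-1.51), LNK2 (-1.41) and PRR7 (-1.03), and of the evening list GI (-1.15). DIN11 was lower as well, with 751 and 716 in At3+ (log2 -2.57, limma adjusted p = 1.16e-09). Against the mean of the other 5 lines, no clock gene was called (background 0.261% lower).

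Nuclear genes of photosynthesis were higher by small steps. Of 21 Calvin cycle genes 5 rose, 19 were higher at an adjusted p under 0.05 and none was below 0 (median 0.76). Over all genes tested, 4533 of 22222 were higher at that adjusted p. Of 33 genes of the photosystems and electron transport 4 rose and 26 were higher at an adjusted p under 0.05 (median 0.50). Of 5 nuclear genes of the NDH complex, which cycles electrons around photosystem I, 2 rose (median 0.88). RBCS1B (AT5G38430), a small subunit of Rubisco, was at 24592, 24940.1 and 25517 in At3++ and 8025, 8195 and 7899 in Col-0 (log2 1.64, SE 0.08, limma adjusted p = 2.75e-14). CP12-2 (AT3G62410), a linker that regulates the cycle in the dark, was at 5876, 6107 and 6369 against 2239.9, 2124 and 2099 (log2 1.51). Ferredoxin FD2 (1.19), the ATP synthase subunit gene ATPD (1.07) and the NDH gene PQL2 (1.26) were called, as was GLDP1 (AT4G33010) of photorespiration (1.22), the only called gene of 14 in that list. The RBCS genes are near-identical copies, which makes their single levels uncertain. With libraries scaled by their total, 1 instead of 4 photosystem genes was called.

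The antenna genes did not move together. Of 19 light-harvesting genes 2 fell, 1 rose and the median was 0.23. LHCB2.1 (AT2G05100) of the mobile antenna of photosystem II was at 1667, 1928 and 1848 in At3++ and 4984, 5763 and 5197 in Col-0 (log2 -1.55), and its near-identical copy LHCB2.2 fell by 1.304. LHCA6 (AT1G19150), which ties photosystem I to the NDH complex, was at 1649, 1735.3 and 1678 against 578, 600.1 and 558 (log2 1.54). LHCB1.3, the most abundant, had 0.36 and was not called. Against At3+ and the other 5 lines, at most 2 genes of any of these lists were called.

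Genes encoded in the chloroplast were higher by more. Of 92 tested, 74 rose and 1 fell (median 2.41), and of 37 mitochondrial genes 14 rose and none fell (median 0.89). Names are given for 19 chloroplast genes that the study lists from these samples, all of which rose, so that their direction is no independent evidence. ndhH (ATCG01110), a subunit of the NDH complex, was at 496, 442 and 312 in At3++ and 7.42, 7.48 and 6.15 in Col-0 (log2 5.68, SE 0.31, limma adjusted p = 2.20e-13). psaB, of the core of photosystem I, was at 1645, 1587 and 1847 against 225, 558 and 246 (log2 2.42), and psbC, of that of photosystem II, at 1543, 1352 and 1729 against 177, 411 and 219.5 (log2 2.60). The second Col-0 library was the highest of that group for psaB and psbC, and the groups did not overlap for any of the 3 genes. Chloroplast genes took 0.192% to 0.241% of reads in At3++ and 0.0330% to 0.0687% in Col-0, where the second library was the highest, and mitochondrial genes 0.0440% to 0.0553% against 0.0169% to 0.0296% (exact permutation p = 0.1 each, the smallest possible). Without the second Col-0 library 72 chloroplast and 15 mitochondrial genes were called higher.

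Most organelle transcripts lack the long poly(A) tails by which these libraries were selected, and so do ribosomal RNAs. Of the nuclear ribosomal RNA genes listed, AT3G41768 was at 9784, 9129 and 17875 in At3++ and 3751, 7407 and 3068 in Col-0 (log2 1.41, SE 0.31, limma adjusted p = 7.20e-04), and AT2G01020 rose by 1.26. These genes were picked after their values were seen. Like the organelle genes they were higher in At3++ than in Col-0. Within At3++ the third library had the most of both ribosomal RNAs. It had the lowest chloroplast share (0.192%) and the highest mitochondrial share (0.0553%) of that group. Within Col-0 the second library had the most of both ribosomal RNAs. It also had the highest chloroplast share (0.0687%) and the highest mitochondrial share (0.0296%) of that group. The part of RNA selection in the organelle result was not tested. None of 8 genes for the polymerases and sigma factors that transcribe the chloroplast was called, with SIG5 at -0.90 and SIG3 at 0.43. Against At3+, 74 chloroplast and 13 mitochondrial genes were higher in At3++ (medians 2.08 and 1.00), and against the mean of the other 5 lines none was higher and 2 chloroplast genes were lower (medians 0.11 and -0.04).

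**Figure D4:**
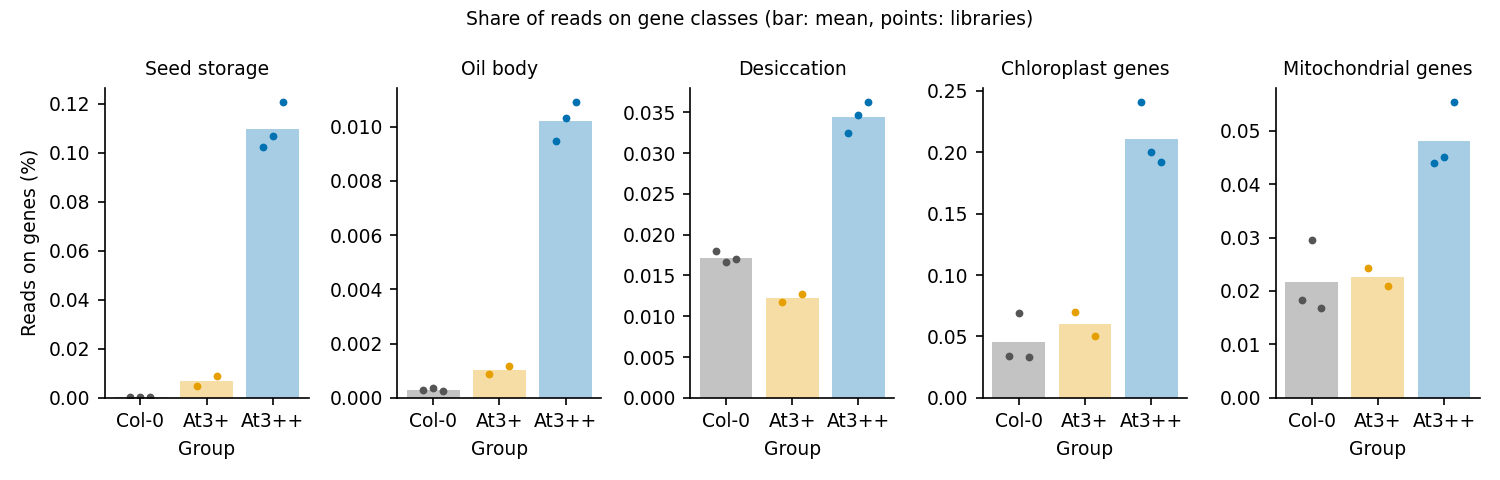
Share of reads on genes, in percent, that fell on 5 gene classes in each library of Col-0, At3+ and At3++ (bars are group means, points are libraries). Storage protein genes take 0.102% to 0.121% in At3++ and at most 3.84e-04% in Col-0, and the chloroplast share of the second Col-0 library, 0.0687%, lies above those of the other Col-0 libraries.

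Flavonoid genes rose in part. Of 9 early genes 3 rose (median 0.62) and of 9 late anthocyanin genes 5 rose (median 1.56). CHS (AT5G13930), chalcone synthase at the entry of the pathway, was at 1373, 1707 and 1714 in At3++ and 324, 351 and 323 in Col-0 (log2 2.25, SE 0.11, limma adjusted p = 1.52e-14), and the flavonol synthase gene FLS1 (AT5G08640) was at 220.2, 230.3 and 198 against 39.9, 35.5 and 43.0 (log2 2.42). DFR (AT5G42800), dihydroflavonol reductase, which opens the anthocyanin branch, was at 47.9, 55.5 and 56.3 against 1.85, 3.74 and 4.39 (log2 3.69). LDOX, the next enzyme, rose by 2.66. Col-0 was at the floor for the transferase genes TT19 and UF3GT, which were at least 7.99-fold and 5.20-fold higher. Of their regulators, the repressor gene MYBL2 (-0.96) was not called. Against At3+, 3 early and 5 late genes were higher in At3++.

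Aliphatic glucosinolate genes, which make defence compounds from methionine, rose at 5 of 15 and none fell (median 0.53). The called genes act in chain elongation and in the first steps of the core. MAM3 (AT5G23020), a methylthioalkylmalate synthase, was at 390.4, 458 and 392 in At3++ and 74.2, 74.8 and 84.3 in Col-0 (log2 2.39), BCAT4 (AT3G19710), an aminotransferase, at 536, 626 and 550.1 against 164, 222 and 184 (log2 1.59), and CYP83A1 had 1.42. CYP79F1 (1.13) and CYP79F2 (1.09) lay near the threshold, and without the first Col-0 library 3 genes were called. The MYB factors of the pathway, MYB28 (-0.26) and MYB29 (-0.15), were not called. Against At3+, 6 of the 15 genes were higher in At3++. Among 13 genes for indole glucosinolates and camalexin, CYP79B3 rose (1.14) and PAD3, the last step of camalexin, fell (-1.03).

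Families were also counted by their RefSeq description. Among genes with the word extensin in their description, 17 of 47 tested rose and 1 fell, at 36.2% against 4.04% of all genes. Extensins are structural proteins of the cell wall. The count also takes in genes described as a pollen allergen and extensin family, so that it is no share of structural extensins alone. Xyloglucan endotransglucosylases, which cut and join wall polymers, rose at 9 of 28, with 1 lower. Expansins, which loosen walls, rose at 6 of 25, with 1 lower. Genes with pectin methylesterase or pectin lyase in their description rose at 17 of 123, with 4 lower. Some of these are described as a pectin methylesterase inhibitor superfamily, so that inhibitors may be counted with the enzymes. XTH12 was at 48.9, 46.1 and 57.5 in At3++ and 8.34, 9.35 and 6.15 in Col-0 (log2 2.55), and EXPB3 at 751, 962 and 835 against 169, 142 and 150.1 (log2 2.46). Peroxidases rose at 11 of 86, with 2 lower, and cytochromes P450 at 31 of 199, with 9 lower. Over all genes, 4.04% rose and 2.31% fell. The peroxidase gene AT3G49960 was at 169, 138 and 145 against 12.98, 19.6 and 28.1 (log2 2.90). Of the expansins on the root list, EXP18 (1.46) and EXP7 (1.03) rose, and the call of EXP7 was lost without the second Col-0 library, without the second At3++ library and with libraries scaled by their total. Of the 12 root genes on the list 3 rose and 1 fell. At any fold, 7 were higher and 1 lower at an adjusted p under 0.05, beside 4533 higher and 4025 lower of 22222 genes tested. The median of the list was 0.64, and 10 of the 12 log2 fold changes were above 0. The summed level of the list was 3024 to 3456 in At3++ and 2767 to 3176 in Col-0, which overlap. This sum includes TIP2;3, an abundant member that fell. The part of root content in the wall gene counts was not tested. TIP2;3 (AT5G47450), an aquaporin of the tonoplast, fell from 935, 951 and 1025 to 284, 360.0 and 409 (log2 -1.48), and NRT2.1 (AT1G08090), a nitrate transporter, was at 12.2, 9.42 and 7.19 against at most 1 read in Col-0, at least 3.51-fold. Of 129 MYB factors 6 fell (4.65% against 2.31% of all genes) and 1 rose (0.775% against 4.04%), MYB83 (1.13), whose call was lost with libraries scaled by their total. Ribosomal genes by description, ribosomal RNA included, were called at 6 of 376 and histones at 1 of 47.

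The sphingolipid genes around the introduced enzyme changed by small steps. Leaving out IPCS3, 19 of 34 tested had an adjusted p under 0.05 (12 lower and 7 higher, beside 38.5% of all genes), of which 1 rose and 1 fell past the fold required, with a median of -0.05 against -0.01 for all genes. The phosphatase gene LPP3 fell from 877, 796 and 846 in Col-0 to 419, 378 and 367 in At3++ (log2 -1.11, SE 0.07, limma adjusted p = 1.04e-11). GINT1 (AT5G04500), which adds an N-acetyl sugar to inositol sphingolipids and is known from seeds, was at 18.3, 8.37 and 13.2 against 0.927, 0 and 0, at least 4.85-fold higher. The serine palmitoyltransferase subunits at the head of the pathway were not called, with LCB1 at -0.09 and LCB2A at -0.36. Ceramide synthases had 0.06 (LOH1), -0.01 (LOH2) and 0.13 (LOH3), and the inositol sphingolipid enzymes that follow the synthase had -0.38 (IPUT1) and -0.19 (GMT1). ACD11, a ceramide phosphate carrier whose loss leads to cell death, had -0.67 and ACD5, the ceramide kinase, -0.32, both below the fold required.

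Cold and drought genes split. Of 20 tested 3 rose and 4 fell. COR15A (AT2G42540), a chloroplast protein that guards membranes in the cold, was at 10618, 10017 and 11094 in At3++ and 2904, 2660.1 and 2813 in Col-0 (log2 1.92), COR15B rose by 1.71 and KIN1 by 1.51. The CBF factors that switch on these genes in the cold were lower on low counts, with CBF1 at 5.10, 1.05 and 2.40 against 9.27, 11.2 and 10.5 (log2 -1.70), and CBF2 at least 2.797-fold lower. SNRK2.8, a kinase of osmotic stress, fell by 1.36. RD29A (-0.47) and COR47 (-0.18) were not called. Of 12 heat shock genes 2 rose, HSP70 (1.22) and HSP17.6A (1.03).

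**Figure D5:**
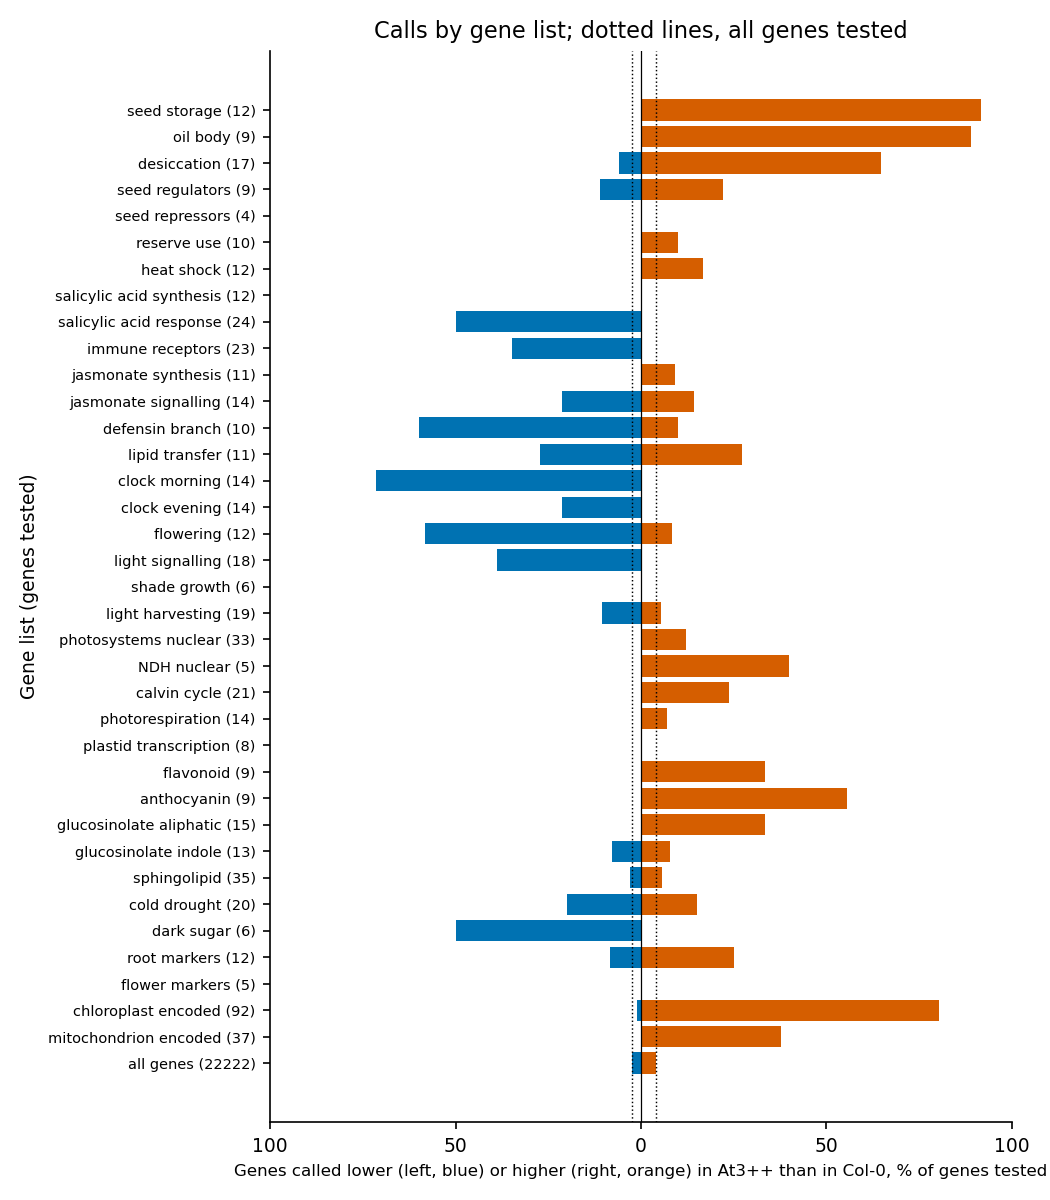
Percent of the tested genes of each list that were called lower (blue, to the left) or higher (orange, to the right) in At3++ than in Col-0, with the number tested in brackets and dotted lines at the 2.31% and 4.04% of all genes. Seed storage and oil body lists reach furthest to the right and the morning clock list, with 10 of 14, furthest to the left.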

How the data were processed

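RNA of 10-day seedlings was sequenced as poly(A)-selected, stranded libraries, single-end. By the methods of the authors, Trimmomatic was used for trimming, STAR for alignment to the Arabidopsis genome, HTSeq for counts per gene and DESeq2 for normalization. The deposited signal values are counts divided by a size factor of each library, not raw counts as planned for. Whole reads were recovered for 100% of values within a tolerance of 0.001, and depth was 12733113 to 17210244 reads on genes in the 20 libraries used. Precision is limited by counting error at low values. No sample column was left unused.

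The main test was limma 3.58.1 (R 4.3.3) with a mean-variance trend on log2(value + 1), over 7 groups in 1 fit, on genes with a mean of at least 1. Calls required a Benjamini-Hochberg adjusted p below 0.05 and a log2 fold change of 1 or more in size. Alternatives were edgeR 4.0.16 and DESeq2 1.42.0 on the recovered reads, no filter, a pseudocount of 0.1, other size factors, a replicate block and leaving out each library. On simulated data for At3++ against Col-0, limma called all 200 changed genes and 7 unchanged ones among 22238 genes. The changed genes had a mean of at least 50 and changes well past the fold required, with the same dispersion for all genes. This check therefore says nothing about calls on low genes or near the threshold. The members and the gene lists were chosen with earlier results of these data known. The genes named were IPCS1 to IPCS3, members of the lists with the largest change or a defining role, and the 12 largest rises and falls among called genes whose groups did not overlap and whose higher group had a mean of at least 50. Families were counted by description words, and examples in them are the largest changes or were chosen after their values were seen. Names follow RefSeq (TAIR10.1), which matched 25090 of 25263 identifiers. A planned split of chloroplast genes by symbol was not made. Windows before gene starts were taken for the 3 seed genes and the 3 defence or clock genes with the largest change, of which 1 is not reported here.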

Additional observations from a re-analysis of the deposited data

Results flagged for a closer look

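At3++ and At3+ carry the same isoform, and their effects differed in a direct comparison of the lines. That comparison, by limma and at the thresholds of the report, called 172 genes lower and 653 genes higher in At3++. Of 178 genes named, 14 were called lower and 61 higher in that comparison. The extremes among them were EPR1, the extensin-like gene, with a log2 difference of 4.52, at 1104, 1269.6 and 1619 in At3++ against 45.4 and 69.5 in At3+, and DIN11, the dark-inducible gene, with -2.57. The mean of AtIPCS3 transcript was lower in the libraries labelled At3++ than in those labelled At3+, a difference not past the threshold, and each line is 1 transformant, so that the level of the transgene and the history of the line cannot be told apart.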

How the results depend on the processing

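The counts of genes called lower and higher against Col-0 and against At3+ stayed within 1.5 times the main count under every alternative run. The count lower than in the mean of the other 5 lines, 58, was 28 with edgeR, 21 with DESeq2 and 88 with a pseudocount of 0.1, and the cause was not tested. Leaving out 1 library at a time gave 442 to 510 lower and 806 to 928 higher genes against Col-0, 115 to 179 and 513 to 631 against At3+, and 47 to 78 and 206 to 282 against the other 5 lines. Where At3+ was left with 1 sample, that sample was assumed to vary like the other groups. Of the 178 genes named, DESeq2 changed no call, edgeR lost 1 of 178 (LTP3) and a pseudocount of 0.1 lost 3 (AZI4, CDF5 and DOG1). Calls of AOS, CYP79F1, CYP79F2 and HSD5 were lost without Col-0 replicate 1, those of EXP7 and PAD3 without Col-0 replicate 2, and those of HSP17.6A, LTP3 and PAD3 without Col-0 replicate 3. Without At3++ replicate 1 HSP17.6A was lost, without replicate 2 EXP7, HSP17.6A, LTP3, PAD3 and WRKY60, and without replicate 3 HSD5 and LTP3. Total-count scaling, chosen after seeing the data, lost 11 calls and gained 7. It also left 0 of 3 lipid transfer, 1 of 4 photosystem and 3 of 5 aliphatic glucosinolate genes called higher. The direction turned only for genes that were not called. Leaving out 1 library gave ranges of -0.053 to 0.13 for EDS1, -0.037 to 0.032 for LOH2, -0.068 to 0.085 for PKL, and -0.43 to 0.020 for MYB29. Total-count scaling gave -0.099 for EDS1, -0.097 for LOH1, -0.027 for LOH3 and -0.14 for PKL.

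The replicate numbers did not pair the samples, since deviations of same-numbered At3++ and Col-0 libraries correlated at -0.008, 0.030 and -0.012. With the replicate number as a block, 506 genes were lower and 888 higher than in Col-0, 172 and 634 against At3+, and 55 and 264 against the other 5 lines, and no named gene changed its call. Each line is 1 transformant, and low genes are limited by counting error.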
